A study of Mus musculus with 6 samples.

Results

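Marker genes of endothelium, the cell layer that lines blood and lymph vessels, were compared in thoracic aorta between mice lacking Ndst1 in smooth muscle (labelled NDST) and wild type mice (WT). The 40 genes were chosen by name, with earlier results of these data known. In the list were 23 made by most endothelial cells, 4 arterial, 1 venous, 3 capillary, 4 that hold leukocytes to the vessel wall and 5 lymphatic. They had 68 of the 45281 probes of the array and were 40 of the 19057 genes named on it. Aortas of male C57Bl/6 mice aged 3 to 4 months were read on 6 Illumina bead arrays, 3 per genotype. NDST mice were homozygous for the Ndst1 deletion and carried Cre under the SM22α promoter, which drives it in smooth muscle, whereas WT mice had intact Ndst1 and no Cre, so that Cre and deletion cannot be told apart. Whether each array had its own mouse is not stated in the labels, and the p-values therefore describe how much these arrays varied, which may be technical. Between 17549 and 18619 probes were detected per array. Arrays of a genotype correlated at 0.991 to 0.993 over the kept probes and arrays of different genotypes at 0.982 to 0.984.

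Endothelial cells hold to each other through VE-cadherin, PECAM-1 and claudin-5, and their identity rests on transcription factors of the ETS and SOX families. The angiopoietin receptor Tie2 keeps the layer quiet, and the phosphatase VE-PTP holds Tie2 in check. Arterial endothelium makes ephrin-B2 and the gap junction proteins connexin 37 and connexin 40, venous endothelium the ephrin receptor EphB4, and lymphatic endothelium the transcription factor Prox1 and the hyaluronan receptor Lyve1. RNA of whole aorta comes from few endothelial cells beside many muscle cells and others. In such bulk samples more endothelial cells and more RNA per cell cannot be told apart. Fat cell genes were also bright in these samples (mean log2 intensity 14.5 for Cidea and 14.3 for Ucp1). Whether the endothelial RNA came from the aortic lining or from smaller vessels was not tested.

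All values are log2 intensities after background correction and quantile normalization, and differences are NDST minus WT ± SE with n = 3 arrays per genotype. A probe was kept when its detection p-value was under 0.05 on at least 3 of the 6 arrays, which left 47 of the 68 probes and 33 of the 40 genes. Each gene is given by its brightest kept probe, and a gene is said to have risen or fallen when its limma adjusted p was under 0.05 over all 17954 kept probes. All 33 were detected on at least 2 arrays of each genotype. Of the 21 probes left out, 12 belonged to genes with a kept probe and 9 to the 7 genes without one, namely Clec14a, Ecscr, Erg, Calcrl, S1pr1, Sele and Prox1. Of these 21, 19 were detected on no array, and a probe of Nos3 and a probe of Prox1 on 1 NDST array each.

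Most of the markers stood slightly higher in NDST aortas, and 4 of the 33 rose. The 4 were Cldn5 (claudin-5, 1.42-fold), Ptprb (VE-PTP, 1.60-fold), Vwf (von Willebrand factor, 1.37-fold) and Gja5 (connexin 40, 1.39-fold), and none fell. This was 12.1% of the kept markers, against 4.61% of all 10077 genes tested that rose and 2.74% that fell. Over both directions 7.35% of all genes were called. The difference was above 0 for 29 of the 33 markers (87.9%), as it was for 51% of all genes. The median difference was 0.21 over the markers and 0.00 over all genes.

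The arrays of a genotype differed little in this. The median over the markers, each set against its own mean in WT, was 0.21, 0.22 and 0.21 on the 3 NDST arrays, against -0.02, 0.01 and -0.01 on the 3 WT arrays. For 17 of the 33 markers (51.5%) all 3 NDST values lay above all 3 WT values, as did 18% of all genes, and for 1, Gpihbp1, all lay below, as did 16.1% of all genes. The other 15 overlapped. The summed linear values of the markers were 19459 to 19791 on NDST arrays and 16980 to 17772 on WT arrays.

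**Figure D1:**
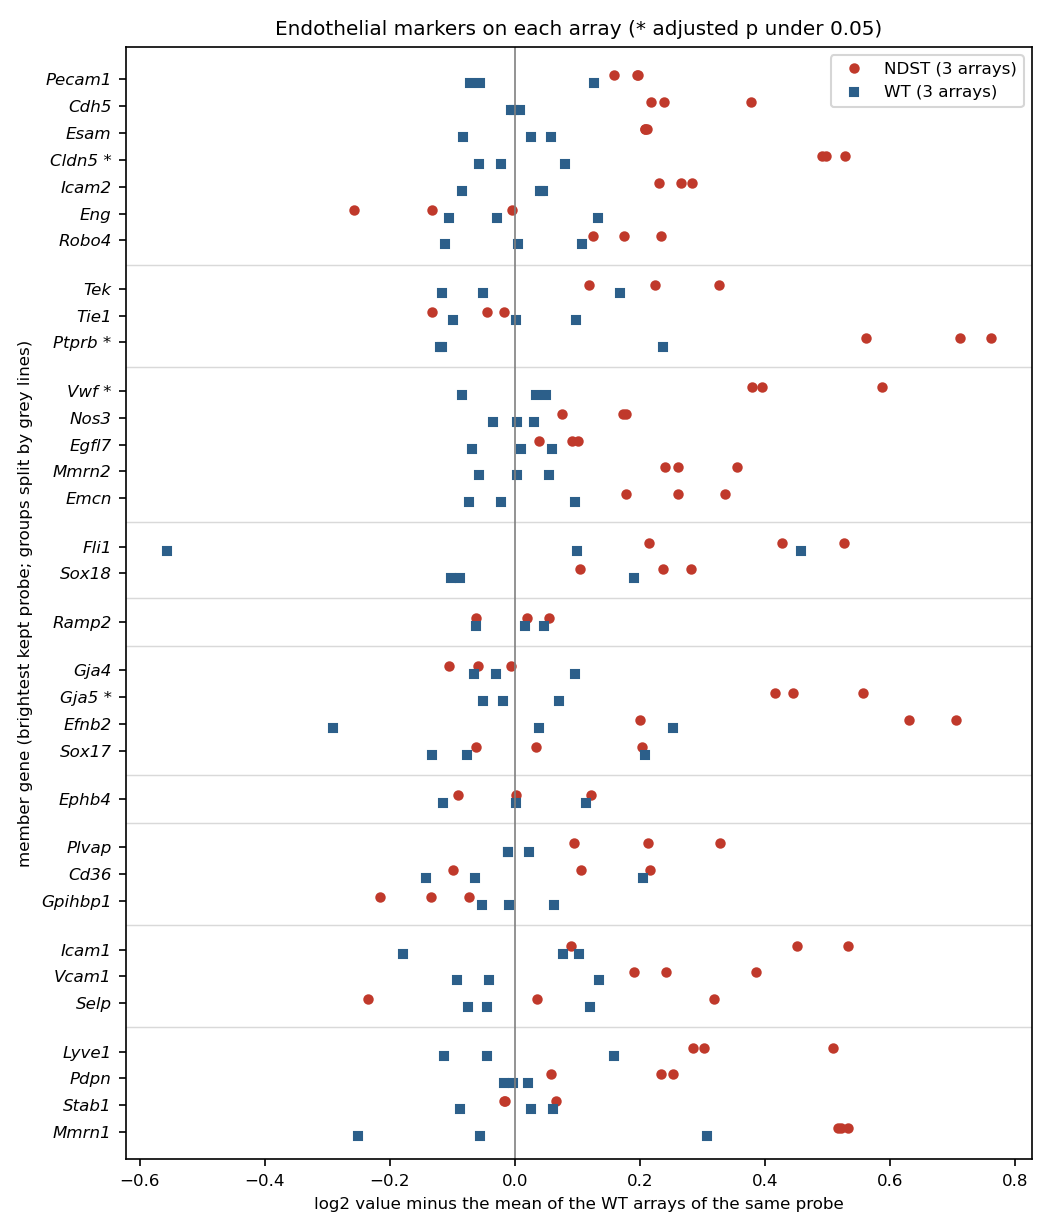
Normalized log2 value of each kept marker gene on each array, minus the mean of the WT arrays of the same probe; circles are the 3 NDST arrays, squares the 3 WT arrays, and stars mark an adjusted p under 0.05. All 3 NDST values lie right of all 3 WT values for 17 of the 33 genes, and left of them for Gpihbp1.

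**Figure D2:**
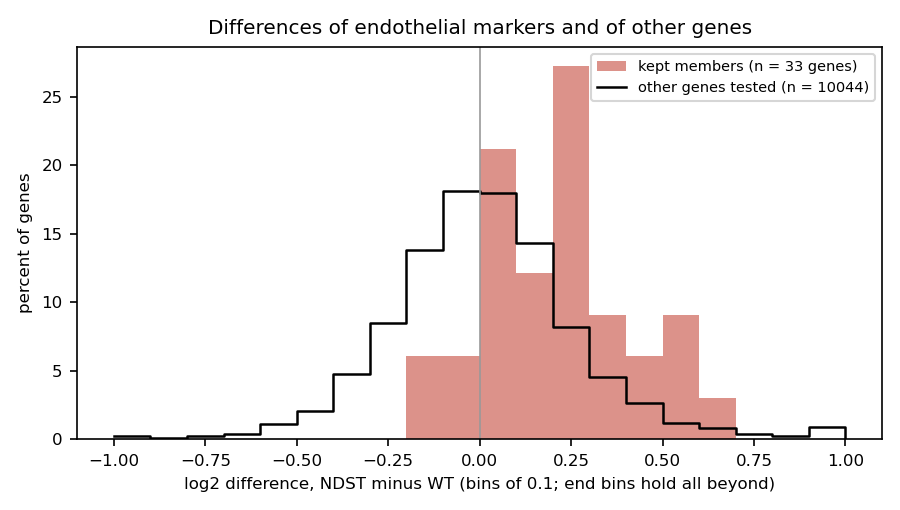
Percent of genes (vertical axis) by log2 difference, NDST minus WT, in bins of 0.1 (horizontal axis), for the 33 kept markers (bars) and the 10044 other genes tested (line); the end bins hold all genes beyond them. The line is centred near 0 and the bars lie mostly to its right, with a median of 0.21.

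Promoters from RefSeq (build GRCm38.p6, 300 bases, most of them before the start) were at hand for 22 of the 40 genes, among them 2 of the called ones. They are shown to let the letters upstream of the called arterial connexin and tight junction genes be read beside their values. Capitals mark chosen forms of the ETS motif (AGGAAG or CGGAAG) and of the SOX motif (ACAATG or ACAAAG) on either strand. These forms were picked after the values were seen, and other forms were not searched.
Gja5, chr3:97032152-97032451, plus strand: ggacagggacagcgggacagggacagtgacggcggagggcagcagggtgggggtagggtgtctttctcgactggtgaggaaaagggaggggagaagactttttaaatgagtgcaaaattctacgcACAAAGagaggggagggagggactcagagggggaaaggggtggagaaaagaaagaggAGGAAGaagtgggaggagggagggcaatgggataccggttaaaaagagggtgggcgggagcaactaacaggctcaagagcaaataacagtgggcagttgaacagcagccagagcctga
Cldn5, chr16:18776597-18776896, plus strand: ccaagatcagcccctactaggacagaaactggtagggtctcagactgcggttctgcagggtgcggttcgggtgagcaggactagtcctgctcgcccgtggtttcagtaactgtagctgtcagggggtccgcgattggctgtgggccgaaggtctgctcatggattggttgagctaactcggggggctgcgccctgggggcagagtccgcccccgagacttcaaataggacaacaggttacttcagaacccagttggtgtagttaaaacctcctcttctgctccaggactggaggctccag

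The Gja5 window held 1 ETS and 1 SOX match, and the Cldn5 window held neither. A chosen ETS form was found in 12 of 27 marker promoters (44.4%) and in 46.5% of all 32851 promoters of the same length. A chosen SOX form was found in 10 of 27 (37.0%) and in 28.6%. These matches describe the letters of the windows alone.

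Among the proteins that join endothelial cells, 1 rose. Cldn5, which encodes the main claudin of endothelial tight junctions, read 10.00, 10.01 and 10.04 on NDST arrays, against 9.45, 9.59 and 9.49 on WT arrays. Its deposited intensities, before any correction, were 1149, 1188 and 1210 on NDST arrays, against 779, 858 and 810 on WT arrays. The groups lay apart on both scales (0.51 ± 0.07, limma adjusted p = 0.0128). Without NDST replicate 2 or 3 the adjusted p was 0.0502 or 0.0523, at differences of 0.51 and 0.50.

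Of the other 6 kept junction and surface markers, none passed. For 5 of them the NDST values all lay above the WT values, as they did for 18% of all genes tested. Pecam1, an adhesion molecule between endothelial cells that platelets and leukocytes also make, read 9.96, 10.00 and 10.00 on NDST arrays, against 9.75, 9.93 and 9.73 on WT arrays (0.18 ± 0.08, limma adjusted p = 0.215). Cdh5, which encodes VE-cadherin of the adherens junction, read 9.32, 9.18 and 9.16 on NDST arrays, against 8.94, 8.95 and 8.93 on WT arrays (0.28 ± 0.08, limma adjusted p = 0.0737). The tight junction adhesion molecule Esam read 10.52 on each NDST array, against 10.34, 10.37 and 10.23 on WT arrays (0.21 ± 0.07). The leukocyte ligand Icam2 stood at 0.26 ± 0.07, and Robo4, a guidance receptor of endothelium, at 0.18 ± 0.09. Eng, a coreceptor for BMP9 that activated fibroblasts and macrophages can also make, overlapped and stood at -0.13 ± 0.10, or at 0.01 without normalization between arrays.

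Among the receptor kinases and the phosphatase that acts on them, Ptprb rose and the kinases did not pass. Ptprb read 9.69, 9.84 and 9.88 on NDST arrays, against 9.003, 9.36 and 9.01 on WT arrays, of which WT replicate 2 was the highest. The groups did not overlap (0.68 ± 0.12, limma adjusted p = 0.0235). The call was kept when WT replicate 2 was left out (0.0170), and lost when any other single array was left out, with adjusted p from 0.0530 to 0.0795 and differences from 0.62 to 0.74. Tek, which encodes Tie2, read 9.08, 8.97 and 9.18 on NDST arrays, against 8.74, 8.80 and 9.02 on WT arrays, and overlapped (0.22 ± 0.10, limma adjusted p = 0.230), and its partner Tie1 stood at -0.06 ± 0.08, or at 0.06 with median scaling.

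Vwf, the clotting protein that endothelium stores, read 9.92, 9.73 and 9.72 on NDST arrays, against 9.39, 9.37 and 9.25 on WT arrays. The groups lay apart (0.45 ± 0.09, limma adjusted p = 0.0308), but the call was lost whichever array was left out (adjusted p 0.0685 to 0.0817, differences 0.39 to 0.49), and also with no filter or with detection on at least 1 array required. Megakaryocytes and platelets make Vwf as well. All 7 kept platelet markers stood below 0 in the same arrays (median -0.33), where 51% of all genes stood above 0. Treml1 passed the threshold (-0.51 ± 0.10, limma adjusted p = 0.0300), and the 3 brightest, Pf4, Ppbp and Gp9, stood at -0.03, -0.31 and -0.34. The summed values of the 7 were 1218 to 1325 on NDST arrays and 1413 to 1537 on WT arrays. Whether platelets had a part in the Vwf difference was not tested.

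Nos3, the endothelial nitric oxide synthase, read 9.40, 9.30 and 9.41 on NDST arrays, against 9.19, 9.26 and 9.23 on WT arrays. Its values did not overlap but the difference was small (0.14 ± 0.07, limma adjusted p = 0.271, 95% interval -0.03 to 0.31). Mmrn2, a matrix protein made by endothelium, stood at 0.29 ± 0.08 (adjusted p = 0.0667) and Emcn, a surface sialomucin of venous and capillary endothelium, at 0.26 ± 0.08. Egfl7, a secreted endothelial protein, stood at 0.08 ± 0.07, with its groups overlapping.

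The transcription factors and the receptors gave no call. The ETS factor Fli1 overlapped widely, at 6.54, 6.75 and 6.85 on NDST arrays, against 5.77, 6.78 and 6.42 on WT arrays (0.39 ± 0.24). The SOX factor Sox18 stood at 0.21 ± 0.11, and the ETS factor Erg was not detected on any array. Ramp2, which makes the calcitonin-like receptor respond to adrenomedullin, stood at 0.00 ± 0.08 (95% interval -0.17 to 0.18). The receptor itself, Calcrl, and the sphingosine phosphate receptor S1pr1 were not detected on any array, nor were the surface proteins Clec14a and Ecscr.

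Of the 2 arterial connexins, Gja5 rose and Gja4 did not pass. Gja5 read 7.99, 7.85 and 7.88 on NDST arrays, against 7.41, 7.38 and 7.50 on WT arrays, with no overlap (0.47 ± 0.08, limma adjusted p = 0.0192). Leaving out WT replicate 3 kept its call (0.0435), and leaving out any other array lost it (adjusted p 0.0546 to 0.0629, differences 0.43 to 0.50). Atrial heart muscle also makes Gja5, and 9 of 9 kept cardiac muscle markers rose in the same arrays, where 4.61% of all genes tested rose. Gja4, which encodes connexin 37, read 7.51, 7.45 and 7.41 on NDST arrays, against 7.48, 7.45 and 7.61 on WT arrays. Its groups overlapped (-0.06 ± 0.08, limma adjusted p = 0.697, 95% interval -0.24 to 0.13), and its difference was 0.06 under median scaling and 0.11 when arrays were left unnormalized. Whether the connexins' differences differ was not tested.

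The other arterial markers and the venous marker did not pass on their brightest probes. Efnb2, the ephrin of arteries, was dim, at 5.67, 5.16 and 5.60 on NDST arrays, against 5.003, 5.22 and 4.67 on WT arrays, and it was detected on all 3 NDST arrays and 2 WT arrays (0.51 ± 0.18, limma adjusted p = 0.134). The SOX factor Sox17 stood at 0.06 ± 0.12. Ephb4, the receptor for ephrin-B2, stood at 0.01 ± 0.10, and the groups overlapped for both Sox17 and Ephb4.

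**Figure D3:**
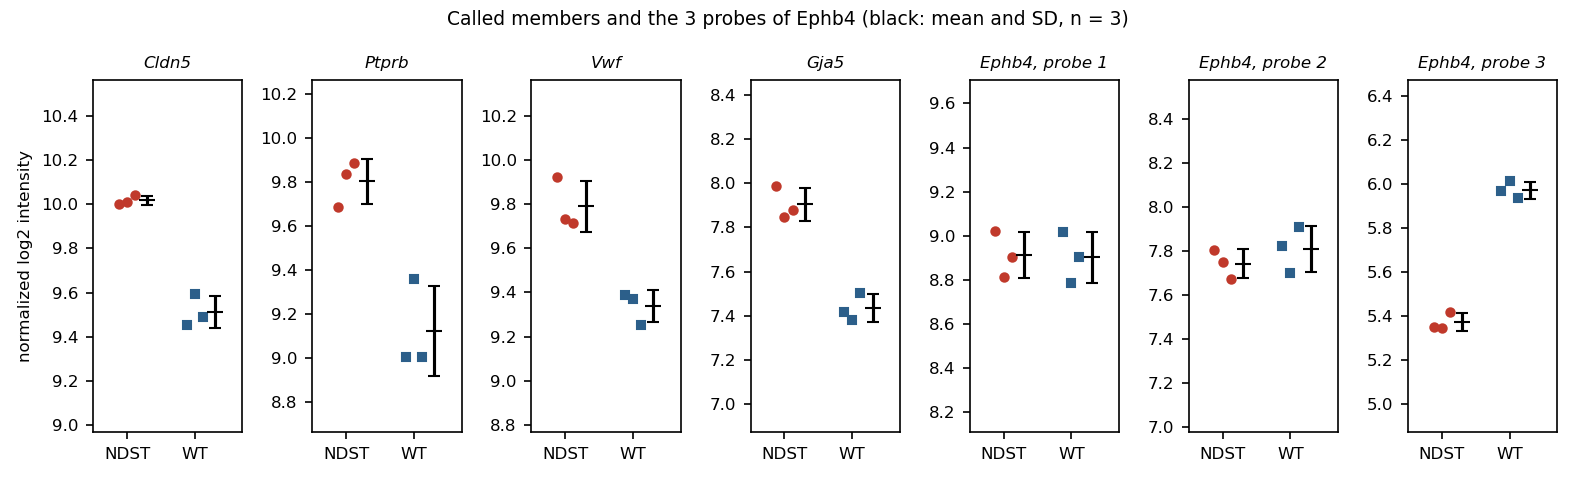
Normalized log2 intensity (vertical axis, each panel spanning the same number of log2 units) on the 3 NDST arrays (circles) and 3 WT arrays (squares) for the 4 called markers and for the probes of Ephb4 from brightest to dimmest; black marks are the mean and SD. The NDST points lie above the WT points for Cldn5, Ptprb, Vwf and Gja5, overlap them for the brighter Ephb4 probes and lie below them for the dimmest.

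Most other probes of a gene stood on the same side of 0 as its brightest one. Of the 9 markers with several kept probes, all probes stood above 0 for 5 (Pecam1, Cdh5, Nos3, Gja5 and Sox17), all below 0 for Gpihbp1, and on both sides for 3 (Egfl7, Ephb4 and Stab1). Such probes share their gene and are not separate evidence. The dimmer probes of Gja5 stood at 0.34 ± 0.09 and 0.61 ± 0.16 (adjusted p = 0.0640 and 0.0644), those of Pecam1 at 0.34 ± 0.10 and 0.23 ± 0.08, and those of Nos3 at 0.13 ± 0.07 and 0.10 ± 0.07.

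The dimmest probe of Ephb4 was the 1 dimmer marker probe with an adjusted p under 0.05. It read 5.35, 5.35 and 5.42 on NDST arrays, against 5.97, 6.01 and 5.93 on WT arrays, and fell (-0.60 ± 0.07, limma adjusted p = 0.00554), while the brighter probes stood at 0.01 ± 0.10 and -0.07 ± 0.09. It passed under all 19 alternatives that tested it. Its deposited intensities of 153, 154 and 163 on NDST arrays and 165, 173 and 170 on WT arrays lay close to the array medians of 134 to 141 (NDST) and 130 to 136 (WT). With it, 5 of the 47 kept marker probes were called, 4 higher and 1 lower (10.6%), where 7.44% of all probes were called, 4.32% higher and 3.12% lower.

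**Figure D4:**
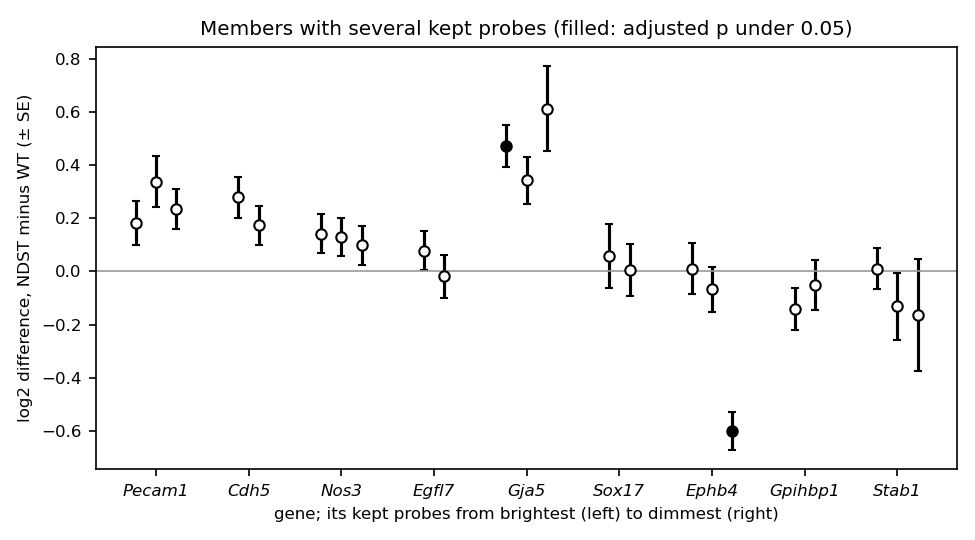
Log2 difference, NDST minus WT, ± SE (vertical axis) of each kept probe of the 9 markers with several kept probes, from brightest to dimmest within a gene; filled points have an adjusted p under 0.05. The dimmest Ephb4 probe, at -0.60, stands apart from the other probes of its gene.

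No capillary marker passed. Plvap, which forms the diaphragms of capillary pores, read 8.39, 8.63 and 8.51 on NDST arrays, against 8.29, 8.32 and 8.29 on WT arrays, with no overlap (0.21 ± 0.08, limma adjusted p = 0.169). Gpihbp1, which anchors lipoprotein lipase in capillaries, read 9.83, 9.89 and 9.75 on NDST arrays, against 9.92, 10.03 and 9.96 on WT arrays, so that the NDST values were the lower ones (-0.14 ± 0.08, limma adjusted p = 0.303). On its dimmer kept probe the groups overlapped (-0.05 ± 0.10). Cd36, a fatty acid transporter of capillaries that fat cells and macrophages also make, was dim and overlapped, at 5.05, 5.37 and 5.26 on NDST arrays, against 5.36, 5.01 and 5.09 on WT arrays (0.07 ± 0.12). None of 7 kept adipocyte markers passed (median -0.08, summed values 54614 to 56056 on NDST arrays and 56810 to 60051 on WT arrays), with the brightest, Cidea, Ucp1 and Adipoq, at 0.02, -0.25 and 0.00.

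None of the 3 kept adhesion molecules for leukocytes passed. Vcam1 read 8.24, 8.10 and 8.04 on NDST arrays, against 7.99, 7.76 and 7.81 on WT arrays, with no overlap (0.27 ± 0.10, limma adjusted p = 0.129). Icam1 stood at 0.36 ± 0.14 with its groups overlapping. Among the selectins, which catch rolling leukocytes, Selp stood at 0.04 ± 0.14 and Sele was not detected on any array. In the same arrays 5 of 7 kept neutrophil markers rose, where 4.61% of all genes tested rose. Among the 5 were Camp and Ngp, which were not detected on any WT array and so were kept through the NDST arrays alone.

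No lymphatic marker passed, and the defining one, Prox1, was detected on 1 array. The brighter probe of Prox1 read 5.22, 4.63 and 4.67 on NDST arrays, against 4.44, 4.49 and 4.31 on WT arrays, and was detected on NDST replicate 1 alone, so it was not tested. Lyve1 read 7.37, 7.14 and 7.16 on NDST arrays, against 6.74, 6.81 and 7.02 on WT arrays, with no overlap (0.37 ± 0.11, limma adjusted p = 0.0830). Mmrn1, a secreted protein of lymphatic endothelium and platelets, read 6.42, 6.43 and 6.41 on NDST arrays, against 5.84, 5.64 and 6.20 on WT arrays (0.52 ± 0.14, limma adjusted p = 0.0689). The NDST values of Mmrn1 hardly varied and all exceeded the WT values. Pdpn, a mucin-like protein that mesothelium and lung epithelium share, stood at 0.18 ± 0.08, and the scavenger receptor Stab1 at 0.01 ± 0.08. Lyve1 and Stab1 are also made by resident macrophages. Of 10 kept markers of macrophages in general none passed (median 0.00, 5 above 0), with the brightest, Lyz2, C1qb and C1qc, at -0.01, 0.08 and 0.02. All NDST values lay above the WT values for F13a1 (0.17) and Folr2 (0.13), as for 18% of all genes tested. They lay below them for Cd163 (-0.33), as for 16.1% of all genes. The other kept macrophage markers overlapped, among them Mrc1 (0.04). Whether macrophages had a part in the values of Lyve1 and Stab1 was not tested.

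Some other genes linked to lymphatic vessels rose. Of 8 listed, all kept, 3 rose and none fell, where 4.61% of all genes tested rose and 2.74% fell. Those that rose were the lymphatic growth factor Vegfc (0.91 ± 0.09, limma adjusted p = 0.00277), Reln, a secreted protein of collecting lymphatics (0.61 ± 0.11, adjusted p = 0.0214), and the chemokine Ccl21a (0.38 ± 0.07, adjusted p = 0.0289). The others did not pass, with Flt4 at 0.23, Nr2f2 at 0.11, Foxc2 at 0.05, Itga9 at -0.14 and Nrp2 at -0.35.

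Of the partners of the markers in their pathways a few rose and none fell, where 4.61% of all genes tested rose and 2.74% fell. Of 8 kept VEGF ligands and receptors Vegfc, already counted among the lymphatic genes, and the coreceptor Nrp1 (0.34 ± 0.07) rose, and none fell. Of the 3 angiopoietins, which bind Tie2, Angpt2 rose (0.37 ± 0.07, limma adjusted p = 0.0265) and the others did not pass. In the nitric oxide pathway 1 of 8 rose, the cyclase subunit Gucy1a1 (0.34 ± 0.07), and of 4 kept sphingosine phosphate genes S1pr2 did (0.43 ± 0.07). None of 9 kept Notch genes passed (median 0.16), none of 8 genes around the BMP9 receptor (median 0.17) and neither of the 2 kept adrenomedullin genes.

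Of 34 further endothelial genes kept, 5 rose and 1 fell (median 0.11, 23 above 0). Over all genes tested 4.61% rose, 2.74% fell and 51% stood above 0. The vasoconstrictor Edn1 (0.61 ± 0.11), the apelin receptor Aplnr (0.55 ± 0.08), the surface lectin Cd93 (0.44 ± 0.08) and Nrp1 were among those that rose. Car4, a carbonic anhydrase of capillary endothelium, fell (-0.38 ± 0.08, limma adjusted p = 0.0374). Its NDST values all lay below the WT values, as they did for 16.1% of all genes tested.

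Markers of other cells moved in the same arrays, where 4.61% of all genes tested rose and 2.74% fell. Smooth muscle markers, all 10 detected on every array, stood at a median of 0.03, with Lmod1 lower (-0.31 ± 0.07), the brightest, Acta2, Mylk and Myh11, at 0.02, 0.05 and 0.04, and summed values of 49596 to 51868 on NDST arrays and 49428 to 50737 on WT arrays. Cardiac muscle markers rose in 9 of 9 kept (median 3.80), and their summed values were 17554 to 18278 on NDST arrays against 1526 to 1586 on WT arrays. Their most significant calls and brightest probes were Actc1 (3.84), Myl4 (3.33), Sln (4.08) and Myl7 (4.16). Fibroblast markers rose in 6 of 9 kept (median 0.41, summed values 20701 to 21776 on NDST arrays and 16825 to 16877 on WT arrays), with Pi16 (0.67), Pdgfra (0.41), Col1a2 (0.52) and Gsn (0.50) the most significant, and Dcn (0.32) and Col1a1 (0.15) among the brightest.

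Neutrophil markers had summed values of 1462 to 1470 on NDST arrays and 583 to 605 on WT arrays, with S100a8 (1.40), S100a9 (1.26), Camp, Ngp and Ltf called. Of 3 kept red cell markers Slc4a1 fell (-0.41 ± 0.07), while Hba-a1 stood at -0.02 and Alas2 at -0.13. Scgb1a1 rose (2.38) among 3 kept lung epithelium markers, Ager stood at -0.18, Sftpd at 0.21, and Sftpc and Sftpa1 were not detected on any array. None of 4 kept mesothelial markers (Upk3b at 0.24, Krt8 at -0.03, Msln at 0.12) and 3 kept lymphocyte markers (Cd79b at -0.04, Cd3g at 0.27, Cd3e at 0.20) passed. The part of the cardiac, fibroblast, neutrophil, platelet, macrophage and fat cells in the endothelial differences was not tested.

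The number of markers called varied with the processing. Under the 20 alternatives between 0 and 15 marker genes were called, and the median over the markers exceeded that over all genes by 0.15 to 0.22 under each of them. Without background correction 14 passed, with median scaling 9, and from the authors' processed values as deposited 13, of which Gpihbp1 was lower. The share of all probes called rose under these settings too, to 17.5%, 9.72% and 19.5% in that order, from 7.44% as reported. Mmrn1 and Mmrn2 passed under 10 of 20 each, Cdh5 under 9, Lyve1 under 8 and Icam2 under 7. Leaving out 1 array left 0 to 3 called marker genes, with none called without NDST replicate 2 or 3; at an unadjusted p under 0.05 limma then gave 12 of the 33 markers each (36.4%), beside 21.8% and 22.5% of all genes.

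**Figure D5:**
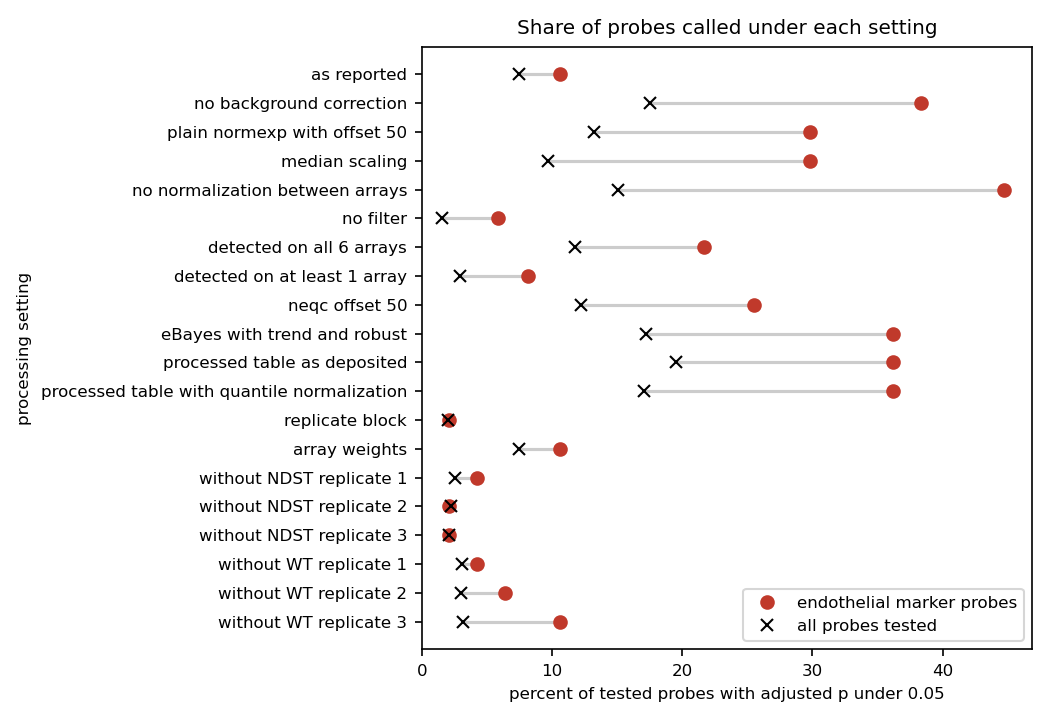
Percent of tested probes with an adjusted p under 0.05 (horizontal axis) under each processing setting (vertical axis), for the endothelial marker probes (circles) and all probes tested (crosses). As reported the shares are 10.6% and 7.44%; with the replicate block, without NDST replicate 2 and without NDST replicate 3 the marker share of 2.13% is 1 of 47 probes, the dimmest Ephb4 probe, which was lower, beside 2.03%, 2.24% and 2.07% of all probes.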

How the data were processed

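Each array's mean intensity per probe, on a linear scale and without normalization, was taken from the deposited table together with the detection p-value that stands beside it, per the file headers. The submitters' processing notes name GenomeStudio and no version. The authors also deposited processed intensities, which ordered the probes as the unprocessed ones did (Spearman correlation of 1 in each sample). They served as an alternative; how they were scaled was not given in the sources used here. The limma package (3.58.1, in R 4.3.3) corrected background from the detection p-values (neqc, offset 16), applied quantile normalization and took log2, which understates fold changes of dim probes. Of 45281 probes 17954 were kept, for 10077 genes. The platform annotation gave 1 gene for 34885 probes, several for 18 and none for 10378; only those with 1 gene were named.

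Genotypes were compared by lmFit and eBayes (two-sided), and p-values were adjusted across the 17954 probes after Benjamini and Hochberg. Precision was limited by 3 arrays per genotype, with a median SD of 0.13 in log2 within a genotype. The steps were tested on simulated arrays. The members, the 20 further gene lists and the tests were chosen with earlier results of these data known. Every member was named, with array values for the called and the defining ones; each further list gave up to 4 called genes of smallest p, and each cell type list also its 3 brightest. Array values for Esam, Tek, Fli1, Efnb2, Vcam1, Mmrn1 and the dimmest Ephb4 probe were added after they had been seen. Alternatives covered background, scaling, filter, moderation, probe choice, the processed table, array weights, a replicate block and leaving out each array. Ndst1 itself was not analysed here, and the labels were taken as given.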

Additional observations from a re-analysis of the deposited data

How the results depend on the processing

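As reported, 4 marker genes, 5 marker probes and 1336 of all probes were called, and the median difference of the marker genes was 0.21. Without background correction these were 14, 18, 3145 and 0.16, with plain normexp and an offset of 50 they were 10, 14, 2365 and 0.18, and with neqc and an offset of 50 they were 8, 12, 2190 and 0.19. Median scaling gave 9, 14 and 1745 with a median of 0.31, and no normalization between arrays gave 15, 21 and 2711 with 0.36, where the median of all genes stood at 0.14, so that 0.22 remained above it. Of all called probes, 58.1% were higher as reported, 82.9% with median scaling and 88.9% without normalization. Probes detected on all 6 arrays gave 7, 10 and 1752, no filter 3, 4 and 722 with a median of 0.18, and detection on at least 1 array 3, 4 and 687. Moderation with trend and robust variance gave 13, 17 and 3086. The authors' processed table gave 13, 17 and 3493 with a median of 0.14 as deposited (41.5% of all calls higher) and 13, 17 and 3066 with 0.16 after quantile normalization. The mean of a gene's probes gave 5 marker genes, and array weights 4. The causes of these shifts were not tested. Leaving out 1 array gave 0 to 3 marker genes, 1 to 5 marker probes, 360 to 557 of all probes and medians of 0.18 to 0.22, with fewer arrays in each fit.

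The replicate numbers of the labels did not pair the arrays (correlations of deviations -0.01, 0.01 and 0.02). With the replicate number as a block 0 marker genes, 1 marker probe and 364 of all probes were called by limma; at an unadjusted p under 0.05 the blocked fit gave 13 of the 33 markers (39.4%) and 2331 of all 10077 genes (23.1%). Blocked adjusted p-values of Cldn5, Ptprb, Vwf and Gja5 were 0.0598, 0.0555, 0.0720 and 0.0718. None of the called genes changed sign under any of the 20 alternatives. Of the uncalled markers 9 did: Gja4 stood at 0.062 and Tie1 at 0.055 with median scaling, Gja4 at 0.11, Tie1 at 0.10 and Eng at 0.0060 without normalization, Ephb4 at -0.22 and Stab1 at -0.10 with the mean of probes, and Egfl7 at -0.043 and Ramp2 at -0.061 in the processed table as deposited. With 1 array left out, differences ran from -0.026 to 0.037 for Ramp2, from -0.046 to 0.067 for Ephb4, from -0.034 to 0.042 for Stab1, from -0.014 to 0.16 for Sox17 and from -0.100 to 0.18 for Selp. Slide as a block was not run, since the files name no slides. Dim probes near background, such as the third of Ephb4 and those of Efnb2 and Cd36, limit what these arrays can show.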
